A study of Mus musculus with 4 samples.

Results

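Claudin and connexin genes were described here by the Ring1B occupancy of their promoters in mouse embryonic fibroblasts (MEFs). The members were all genes whose name on the arrays was Cldn or one of Gja to Gje followed by a number. They came to 36 genes, 19 claudins and 17 connexins, out of 17649 genes with a usable promoter window. They carried 1172 of the 462748 probes with a gene name, with 14 to 83 probes per gene.

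Chromatin was immunoprecipitated with an antibody to Ring1B from MEFs homozygous for the Phc2 L307R substitution (Phc2 L307R/L307R) and from wild-type MEFs, both of the C57BL/6 strain, from embryonic day 12.5 and at passage 2. Immunoprecipitated DNA (Cy5) and input DNA (Cy3) of each genotype were hybridised together to a set of 2 promoter array designs, 4 arrays in all. The designs share no probes, so every promoter was measured on 1 array per genotype, without a replicate, and no p-value is given. How many embryos a culture came from, and whether they were pooled, the sources used here do not say.

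Claudins are membrane proteins whose strands form the tight junctions of epithelia, some sealing the space between cells and others acting as ion-selective pores through it. Connexins assemble into the channels of gap junctions, which join the cytoplasm of neighbouring cells. Many genes of both families are restricted to particular epithelia, the lens, the inner ear, glia or the heart, whereas Gja1 is the main connexin of fibroblasts. Ring1B is the catalytic subunit of Polycomb repressive complex 1 (PRC1), which ubiquitinates histone H2A at repressed developmental genes and in mammals is found mostly at promoters rich in CpG. Phc2 belongs to PRC1 too and polymerises through its SAM domain, the domain in which L307R lies.

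The promoters of 6 members are printed to show the CpG content beside the occupancy described below: 4 connexin promoters that were bound in both genotypes, and the promoters of the chromosome 5 neighbours Cldn3, bound in wild type only, and Cldn4, bound in neither. They are RefSeq promoters of build GRCm38.p6, written 5′ to 3′ on the gene's strand, with every CpG in capitals. Each covers 250 bases before and 50 bases after a start site. Where a gene had several, the start site with the highest CpG content was used. Gja1 is at chr10:56377050-56377349 (+), Gja3 at chr14:57057981-57058280 (-), Gjb2 at chr14:57104653-57104952 (-), Gjb5 at chr4:127358115-127358414 (-), Cldn3 at chr5:134985964-134986263 (+) and Cldn4 at chr5:134946885-134947184 (-).
Gja1: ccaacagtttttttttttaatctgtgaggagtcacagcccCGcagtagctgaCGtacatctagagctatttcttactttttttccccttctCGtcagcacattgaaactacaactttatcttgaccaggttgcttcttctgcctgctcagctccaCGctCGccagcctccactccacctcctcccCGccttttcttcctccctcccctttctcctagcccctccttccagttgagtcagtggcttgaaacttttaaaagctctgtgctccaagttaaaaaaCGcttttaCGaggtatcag
Gja3: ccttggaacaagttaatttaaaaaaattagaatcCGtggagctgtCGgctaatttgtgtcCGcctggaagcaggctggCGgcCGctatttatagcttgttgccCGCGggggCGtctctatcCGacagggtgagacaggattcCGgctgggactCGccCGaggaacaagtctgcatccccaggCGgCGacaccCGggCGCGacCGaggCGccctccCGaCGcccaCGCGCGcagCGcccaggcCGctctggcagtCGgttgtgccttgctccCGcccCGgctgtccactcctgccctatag
Gjb2: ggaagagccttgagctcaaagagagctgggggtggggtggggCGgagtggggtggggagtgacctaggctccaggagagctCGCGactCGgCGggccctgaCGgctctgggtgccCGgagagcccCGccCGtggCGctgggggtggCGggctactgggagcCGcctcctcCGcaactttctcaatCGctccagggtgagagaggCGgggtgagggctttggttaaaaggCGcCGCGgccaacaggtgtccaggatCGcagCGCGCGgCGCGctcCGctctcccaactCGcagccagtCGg
Gjb5: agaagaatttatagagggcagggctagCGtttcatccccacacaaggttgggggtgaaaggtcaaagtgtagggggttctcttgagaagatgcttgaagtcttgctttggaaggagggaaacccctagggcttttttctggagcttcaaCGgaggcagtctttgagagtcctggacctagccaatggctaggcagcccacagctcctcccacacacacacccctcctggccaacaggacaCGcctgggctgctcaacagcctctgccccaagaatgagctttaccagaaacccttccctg
Cldn3: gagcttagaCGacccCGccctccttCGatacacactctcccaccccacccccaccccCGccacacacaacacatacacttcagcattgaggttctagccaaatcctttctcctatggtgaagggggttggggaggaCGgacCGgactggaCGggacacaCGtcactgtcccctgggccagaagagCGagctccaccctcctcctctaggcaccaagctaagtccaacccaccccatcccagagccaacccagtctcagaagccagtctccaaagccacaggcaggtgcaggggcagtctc
Cldn4: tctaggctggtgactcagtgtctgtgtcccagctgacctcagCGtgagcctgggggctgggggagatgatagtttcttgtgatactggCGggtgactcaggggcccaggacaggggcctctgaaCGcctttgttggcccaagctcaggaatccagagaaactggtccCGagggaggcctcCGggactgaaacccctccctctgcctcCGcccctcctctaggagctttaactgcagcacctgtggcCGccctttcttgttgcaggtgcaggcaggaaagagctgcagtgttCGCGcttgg

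The Gja3 promoter held 29 CpG and the Gjb2 promoter 27, whereas the promoters of Gja1, Cldn3 and Cldn4 held 8, 9 and 9 and that of Gjb5 held 3. The sources used here name no build for the probes' coordinates, so the windows described next were not placed on these sequences.

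Ring1B is given throughout as the log2 ratio of immunoprecipitate over input, centred on each array's median, so that 0 is the typical probe. A gene's level is the mean of the 3 neighbouring probes, within at most 2000 bp, whose mean over both genotypes is the highest, and the SD beside it is the spread over those 3 probes, not between cultures. A promoter is called bound where this level is at least 1, and called lower or higher where it was bound in either genotype, differed by at least 1 and had all 3 probes on the same side. Because the highest window is picked, a level above 0 is built in, and the counts of members called are set beside the same counts over all promoters. Wild-type values exist in 2 sets for the same probes: those of the scanner files, used unless stated otherwise, and those of the deposited value tables. The value tables of the Phc2 L307R arrays equalled the scanner ratios at 99.9% of probes after a shift, whereas for wild type Pearson's r between table and scanner file, across probes, was 0.854 on design 1 and 0.890 on design 2. The sources used here do not say which array or processing gave the wild-type tables, so values against both are printed.

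By the scanner's own call, 75.0% and 76.3% of the probes had an input well above background on the Phc2 L307R arrays of designs 1 and 2, against 85.7% and 86.7% on the wild-type arrays. The immunoprecipitate was well above background at 97.9% to 99.7% of the probes on the 4 arrays. No scan day held both genotypes, so scan day and genotype cannot be told apart. Promoter occupancy does not report expression, so the identity of the cells could not be checked by marker transcripts.

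Ring1B was bound at a minority of the promoters of both families in both genotypes. In Phc2 L307R cells 11 of 36 members (30.6%) were bound, against 39.3% of all promoters, and in wild-type cells 12 of 36 (33.3%), against 45.4% of all promoters. On array design 2 alone the Phc2 L307R share was not below that of all promoters, at 8 of 19 members (42.1%), against 40.2%. The bound members were 6 claudins and 5 connexins in Phc2 L307R cells, and 7 claudins and 5 connexins in wild-type cells. In the wild-type value tables, in the same windows, 13 members (36.1%) were bound, against 42.4% of all promoters. The median level was 0.61 in both genotypes, below the medians over all promoters of 0.80 in Phc2 L307R and 0.90 in wild-type cells.

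Bound in all 3 sets of values were 7 members: the connexins Gja1, Gja3, Gjb2 and Gjb5 and the claudins Cldn7, Cldn10 and Cldn23. By the scanner values, 7 of 36 members were bound in both genotypes, against 5953 of 17649 promoters. In none of the 3 were 19 members bound, and Cldn1, at 1.17, passed the cut-off in the value tables only. Counts over the 3 sets were not made for all promoters. Another 4, Cldn2, Cldn8 and Cldn18 among them, passed the cut-off in Phc2 L307R cells and not in the wild-type scanner values, and 5, Cldn3, Cldn11, Cldn12, Cldn19 and Gjb6, passed it in wild type and not in Phc2 L307R. Over all 17649 promoters, 977 passed it in Phc2 L307R only and 2068 in wild type only. The members nearest the cut-off in Phc2 L307R cells were Cldn8 at 1.05 and Cldn11 at 0.86, and in wild-type cells Cldn10 at 1.01 and Gja5 at 0.98, so that several of these differences in status rest on small steps across it.

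**Figure D1:**
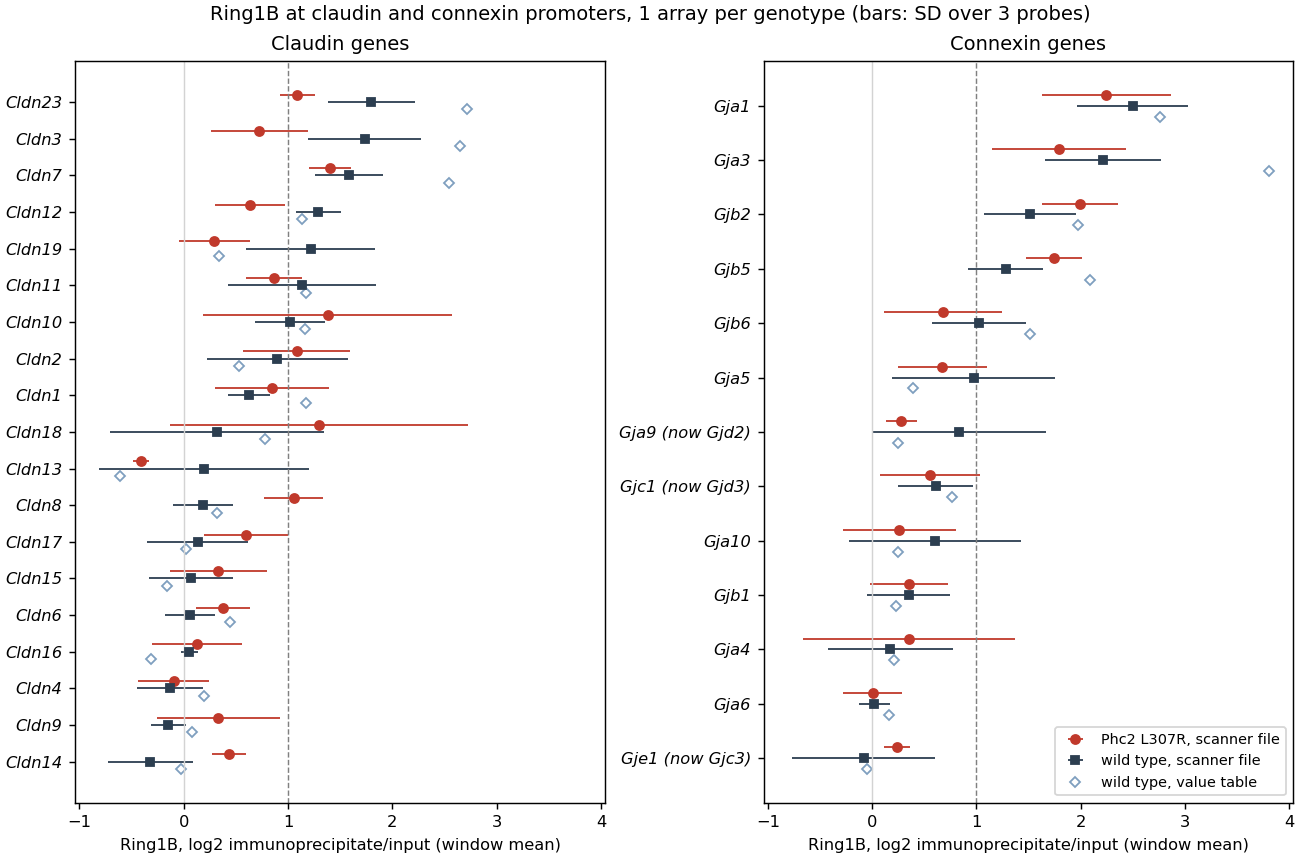
Ring1B level (horizontal axis, log2 immunoprecipitate/input, mean of 3 probes) of claudin genes (left panel) and connexin genes (right panel), ordered down the page by the wild-type level. Circles are Phc2 L307R and squares wild type with the SD over the 3 probes, open diamonds are the wild-type value tables, and the dashed line is the cut-off of 1. Gja1 stands highest in both genotypes and Gja3 highest in the value tables, at 3.81, while most members lie left of the line.

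Among the alpha connexins, occupancy was concentrated on Gja1 and Gja3. Gja1, the gap junction protein of fibroblasts and ventricular heart muscle, had the highest level of all members in both genotypes. Its 3 window probes, at positions 56067216 to 56067549 of chromosome 10 in the files' coordinates, read 2.88, 1.64 and 2.22 in Phc2 L307R cells and 2.69, 1.90 and 2.90 in wild-type cells. The means were 2.25 ± 0.62 in Phc2 L307R cells and 2.50 ± 0.53 in wild-type cells (SD over 3 probes), with 2.76 in the wild-type value tables. The probes of the genotypes overlap, and the difference of −0.25 ± 0.43 was smaller than its spread over the probes. The level lay at the 95.2nd percentile of all promoters in Phc2 L307R cells and at the 96.9th in wild-type cells. The signal was broad: 18 of the 40 Gja1 probes reached 1 in Phc2 L307R cells, against 20 in wild-type cells and 22 in the value tables.

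Gja3, a connexin of the lens, came next in wild type. Its probes, at 56012858 to 56013175 of chromosome 14, read 2.04, 1.06 and 2.28 in Phc2 L307R cells, against 2.80, 1.69 and 2.15 in wild-type cells. The means of 1.79 ± 0.65 in Phc2 L307R cells and 2.21 ± 0.56 in wild-type cells differed by −0.42 ± 0.49, again less than the spread over the probes. The wild-type value tables gave 3.81 in the same window, so against them the difference was −2.01. Gja3 was the one member of 14 bound in either wild-type set where the tables stood above the scanner files by the rule for a difference, which 4.89% of all such promoters met; at none of the 14 were the value tables lower by that rule, which 0.491% met. Bound probes numbered 10 of 28 in Phc2 L307R cells, 16 in wild-type cells and 20 in the value tables.

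The other 5 alpha connexins were below 1 in both genotypes. Of all 7 alpha connexins, 6 had a difference below 0, with a median of −0.25, and none was called lower or higher; 4 were below 0 against the value tables, where the median was −0.14. Gja5, a connexin of the atria and of arterial endothelium, came closest to the cut-off, with 0.67 in Phc2 L307R cells, 0.98 in wild-type cells and 0.39 in the value tables.

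The beta connexins, most of them expressed in skin and in the inner ear, had 3 of 6 members bound in each genotype. The difference was above 0 in 4 of 6, with a median of 0.45, but in 3 of 6 against the value tables, where the median was −0.01. At Gjb2, a connexin of the cochlea and epidermis, the probes read 2.42, 1.82 and 1.76 in Phc2 L307R cells and 1.91, 1.04 and 1.59 in wild-type cells. The means were 2.00 ± 0.36 in Phc2 L307R cells and 1.51 ± 0.44 in wild-type cells, and the value tables, at 1.98, were as high as Phc2 L307R. The difference was therefore 0.48 ± 0.31 against the wild-type scanner values and 0.02 against the value tables. It was below 0 with probes well above background only (−0.15) and with normexp (−0.09). Outside the window, 1 Gjb2 probe read 3.61 in Phc2 L307R cells, 1.10 in wild-type cells and 2.13 in the value tables. The input was well above background at 0 of the 3 window probes in Phc2 L307R cells and at 2 in wild-type cells, and its part in the difference was not tested.

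Gjb5, an epidermal connexin, read 1.61, 2.05 and 1.57 in Phc2 L307R cells and 1.44, 1.54 and 0.86 in wild-type cells. The difference was 0.47 ± 0.27 against the scanner values and −0.34 against the value tables, where the level was 2.08. Over the 10 settings that recompute it, the sign was kept in 6. Gjb5 was the only one of the 16 members bound in either genotype whose difference changed sign between the 2 wild-type sets. Gjb6, a connexin of astrocytes and the cochlea, had 0.68 in Phc2 L307R cells, 1.03 in wild-type cells and 1.51 in the value tables.

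The gamma connexins of the arrays, Gje1 (now Gjc3) among them, and the delta connexins, Gja9 (now Gjd2) and Gjc1 (now Gjd3), were bound in neither genotype. Gje1 is a connexin of myelinating glia and Gja9 is the connexin of neuronal electrical synapses. Gja9 had the highest wild-type level of these, with 0.28 in Phc2 L307R cells, 0.83 in wild-type cells and 0.25 in the value tables.

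**Figure D2:**
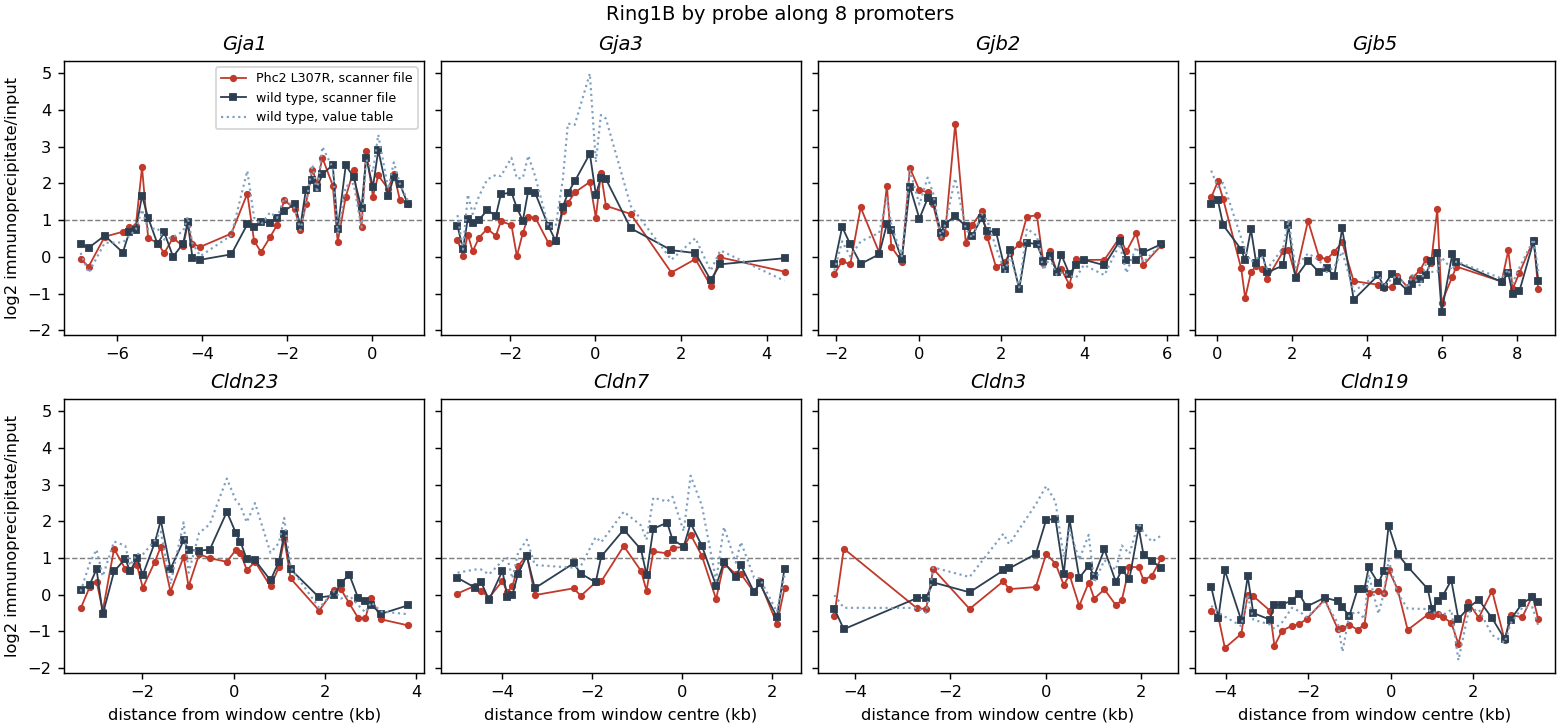
Ring1B by probe (vertical axis, log2 immunoprecipitate/input) against distance from the centre of the window (horizontal axis, kb) at Gja1, Gja3, Gjb2, Gjb5, Cldn23, Cldn7, Cldn3 and Cldn19. Circles are Phc2 L307R, squares are wild type, the dotted line is the wild-type value table and the dashed line is the cut-off of 1. The signal is spread over several kb at Gja1 and Gja3, with 18 and 10 probes at the cut-off in Phc2 L307R and 20 and 16 in wild type, and at Cldn19 no Phc2 L307R probe and 2 wild-type probes reach it.

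Among the barrier claudins, Cldn3 was the one member called lower in Phc2 L307R cells. It is a sealing claudin of epithelia and, with Cldn4, a receptor for the enterotoxin of Clostridium perfringens. Its window, at 135270250 to 135270712 of chromosome 5 in the files' coordinates, had probe values of 0.21, 1.12 and 0.85 in Phc2 L307R cells, against 1.11, 2.04 and 2.06 in wild-type cells. These probe values, which are not replicates, overlap only where the highest in Phc2 L307R, at 1.12, meets the lowest in wild type, at 1.11. At each of the 3 probes the Phc2 L307R value was lower. The means were 0.72 ± 0.46 in Phc2 L307R cells and 1.74 ± 0.54 in wild-type cells, a difference of −1.01 ± 0.17 (SD over 3 probes), and −1.93 against the value tables, which gave 2.65. Cldn3 lay at the 46.1st percentile of all promoters in Phc2 L307R and at the 85.9th in wild type.

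Over the whole Cldn3 promoter, 2 of 24 probes reached 1 in Phc2 L307R cells, against 7 in wild-type cells and 14 in the value tables. Cldn3 was thus 1 of 16 members bound in either genotype that was called lower, against 3.02% of all bound promoters, and 0 were called higher, against 1.64%. The difference stood just past the threshold. It remained below 0 under the 10 other settings that recompute it, from −1.93 to −0.43, but the call ended with normexp background correction (−0.47), with probes well above background only (−0.72), with windows of 5 probes (−0.97), with windows chosen in Phc2 L307R alone (−0.81) and with the mean over all probes (−0.43). The input was well above background at 0 of the 3 probes in Phc2 L307R cells and at 2 in wild-type cells, and its part in the difference was not tested.

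The other barrier claudins bound in wild type were Cldn19 and Cldn11. Cldn19, a claudin of the renal thick ascending limb, had 0.29 in Phc2 L307R cells and 1.22 ± 0.62 in wild-type cells, a difference of −0.92 ± 0.30. The value tables gave 0.34, close to Phc2 L307R, so that the Cldn19 difference was −0.05 against them. Cldn11, the claudin of central myelin and of Sertoli cells, differed by −0.27, with 0.86 in Phc2 L307R cells, 1.13 in wild-type cells and 1.17 in the value tables.

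Cldn18, of lung and stomach, was the barrier claudin bound in Phc2 L307R only. Its probes read 2.92, 0.21 and 0.77 in Phc2 L307R cells and 1.48, −0.46 and −0.06 in wild-type cells, so that 1 probe carried the level in both genotypes. Its difference of 0.98 ± 0.40 was the highest of all members and was 0.52 against the value tables, but 0.04 with probes well above background only and −0.06 with normexp. Cldn4, next to Cldn3, and Cldn14, a claudin of the inner ear and kidney, were among the lowest members in wild type. Cldn4 had −0.10 in Phc2 L307R cells, −0.13 in wild-type cells and 0.20 in the value tables, and Cldn14 had 0.43 in Phc2 L307R cells, −0.32 in wild-type cells and −0.03 in the value tables. In all, 1 of the 7 barrier claudins was bound in Phc2 L307R cells and 3 in wild-type cells. The median difference was 0.03, with 3 of 7 below 0, and −0.29 against the value tables, with 5 of 7 below 0.

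The channel claudins Cldn2, Cldn10, Cldn15, Cldn16 and Cldn17 form paracellular pores. All 5 differences were above 0, with medians of 0.26 against the scanner values and 0.49 against the value tables, and none was called. Over all promoters, 8032 of 17649 differences were above 0. Cldn2, Cldn10, Cldn16 and Cldn17 are on design 2, where 1 of 11 claudins had a difference below 0. Cldn10 was bound in both genotypes, at 1.38 ± 1.19 in Phc2 L307R cells and 1.01 in wild-type cells, and at 1.17 in the value tables. Its probes read 0.67, 2.76 and 0.71 in Phc2 L307R cells and 0.82, 1.40 and 0.82 in wild-type cells. The Cldn10 difference kept its sign in 7 of the 10 settings that recompute it and ran from −0.68 to 0.36. Cldn2, the cation channel of leaky epithelia, had 1.08 in Phc2 L307R cells, 0.90 in wild-type cells and 0.53 in the value tables. Its input was well above background at 0 of 3 probes in wild-type cells. The Cldn2 difference was −0.26 with probes well above background only.

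Of the remaining 7 claudins, Cldn23 and Cldn7 were bound in every set. Cldn23 had 0.90, 1.22 and 1.15 in Phc2 L307R cells, against 2.26, 1.68 and 1.45 in wild-type cells. These probe values, which are not replicates, did not overlap between the genotypes. In the opposite direction the probe values did not overlap at Gjb5, Cldn8 and Cldn14 either. The means were 1.09 ± 0.17 in Phc2 L307R cells and 1.80 ± 0.42 in wild-type cells, and the difference was −0.71 ± 0.57, or −1.63 against the 2.72 of the value tables. Bound probes numbered 7 of 34 in Phc2 L307R cells, 10 in wild-type cells and 18 in the value tables.

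Cldn7, a claudin of the basolateral membrane of epithelia, had 1.40 ± 0.20 in Phc2 L307R cells and 1.59 ± 0.33 in wild-type cells, a difference of −0.18 ± 0.15, and −1.14 against the 2.54 of the value tables. Cldn12 had 0.63 in Phc2 L307R cells, 1.29 in wild-type cells and 1.13 in the value tables, a difference of −0.65 ± 0.16. The Cldn12 difference was −0.50 ± 0.66 against the value tables. It was −0.01 with the mean over all probes and 0.24 with windows chosen in Phc2 L307R alone. Bound Cldn12 probes numbered 8 of 34 in Phc2 L307R cells and 9 in wild-type cells. Its input was well above background at 1 of 3 window probes in each genotype. Cldn8, of the distal nephron and colon, had a difference above 0, 0.87 ± 0.47, with 1.05 in Phc2 L307R cells, 0.18 in wild-type cells and 0.32 in the value tables. The Cldn8 difference was 0.31 with probes well above background only, −0.15 with windows chosen in wild type alone and −0.35 with normexp. Cldn9, of the inner ear, was low in every set, at 0.33 in Phc2 L307R cells, −0.15 in wild-type cells and 0.08 in the value tables.

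Over all 36 members, the differences ran from −1.01 to 0.98 with a median of 0.05, against −0.05 over all promoters. Of the members, 17 had a difference below 0 (47.2%), against 54.5% of all promoters. The median was 0.19 over claudins and −0.02 over connexins. The claudin median was below 0 with normexp (−0.17), windows of 5 probes (−0.10), the mean over all probes (−0.08), windows chosen in wild type alone (−0.44) and on design 1 alone. Against the value tables it was 0.20 in the same windows and −0.04 with windows chosen anew in the tables. A single window's difference had a probe noise of 0.393 on design 1 and 0.364 on design 2 (SD, from neighbouring probes), and in 14 members, 7 below and 7 above 0, the difference was larger than its own SD over the probes. The same count was not made over all promoters, so the 14 have no baseline here.

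The sign of the difference went with the wild-type level among the claudins and among all promoters. Of the 12 members bound in wild type, 9 had a difference below 0 (75.0%), with a median of −0.31, and of the 24 not bound in wild type, 8 did (33.3%), with a median of 0.19. Among claudins these counts were 6 of 7 and 1 of 12, and among connexins 3 of 5 and 7 of 12, so that the pooled counts rest on the claudins. Over all promoters the shares were 69.5% of those bound and 42.0% of those not bound in wild type. The wild-type value is part of both the level and the difference, so the shares are a description of the plot of differences against level and no more.

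The claudins also differed by array design. On design 1, 6 of 8 claudins had a difference below 0, with a median of −0.63, and on design 2, 1 of 11, with a median of 0.36. The medians over all promoters were −0.07 on design 1 and −0.03 on design 2. Each design holds different genes and its own pair of arrays, so gene and array cannot be told apart here. Over the connexins, 4 of 9 on design 1 and 6 of 8 on design 2 were below 0.

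**Figure D3:**
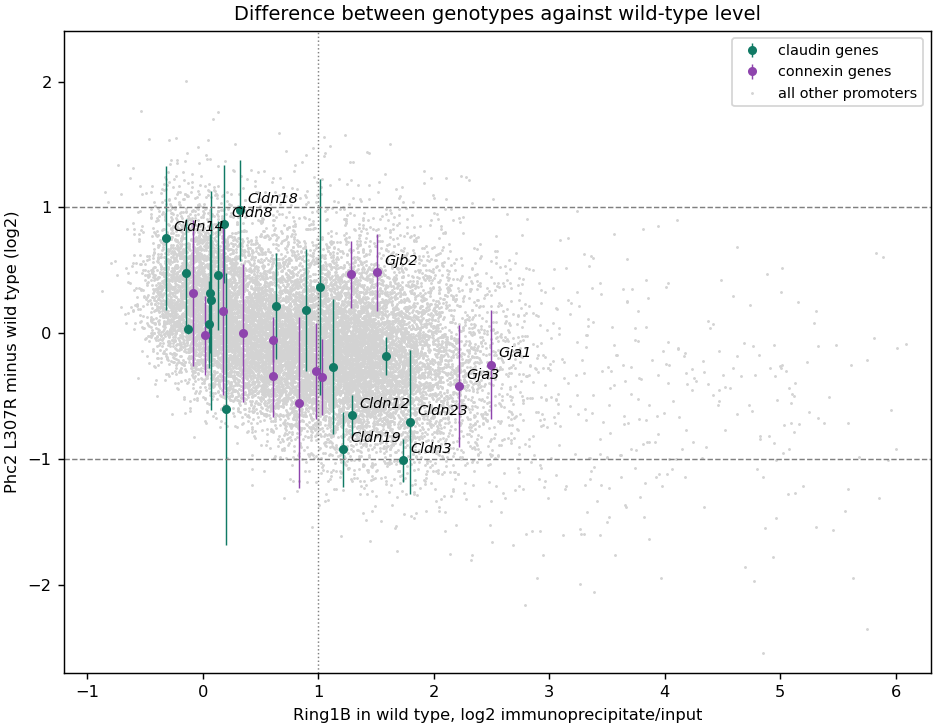
Difference Phc2 L307R minus wild type (vertical axis, log2) against the wild-type Ring1B level (horizontal axis, log2 immunoprecipitate/input), with claudin genes in green, connexin genes in purple with the SD over 3 probes, and all other promoters in grey. Dashed lines mark differences of 1 and −1 and the dotted line the bound cut-off of 1. Cldn3, at −1.01, is the only member past a dashed line on the bound side, and Cldn18, at 0.98, is the highest member.

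Against the wild-type value tables in the same windows, 4 of the 16 members bound in Phc2 L307R cells or in the tables were called lower: Cldn3, Cldn7, Cldn23 and Gja3. Over all promoters bound in either of these sets 7.26% were called lower, and 0 members were called higher, against 0.753%. All 4 also had a difference below 0 against the wild-type scanner values, though only Cldn3 passed the rule there. Over all 36 members the sign of the difference was not the same against the 2 wild-type sets in 10. At 24 of 36 members the wild-type level was greater by table than by scanner file, against 8427 of 17649 promoters. Table minus scanner file had a median of 0.15 over all 36 members, against −0.02 over all promoters.

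Counted over all probes rather than 1 window, Ring1B covered less of these promoters than of the average promoter. In Phc2 L307R cells 89 of 1172 member probes (7.59%) reached 1, against 12.8% of the probes of all promoters, and in wild-type cells 102 (8.70%), against 14.0%. The 6 genes with the most such probes in wild type, Gja1, Gja3, Cldn23, Cldn7, Cldn12 and Cldn3, held 53 of the 89 in Phc2 L307R cells and 72 of the 102 in wild-type cells. The choice of these 6 by their wild-type counts favours the wild-type share, and in Phc2 L307R cells Gjb2, with 10, held more than Cldn3, with 2. In each genotype 14 members had no probe at 1, and 10 members had none in both. As a measure of noise in the same unit, the lowest window was at −1 or below at 6 members (16.7%) in Phc2 L307R cells and at 2 (5.56%) in wild-type cells, against 9.24% of all promoters in Phc2 L307R and 3.07% in wild type.

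Several members are neighbours, and bound and unbound genes stood side by side. On chromosome 14 the windows of Gja3 and Gjb2 were 44.9 kb apart and both were bound in both genotypes, and Gjb6, 27.9 kb beyond Gjb2, was near the cut-off. The differences had opposite signs at the bound pair, −0.42 at Gja3 and 0.48 at Gjb2. On chromosome 5, Cldn3 was bound in wild type while Cldn4, 33.5 kb away, and Cldn13, 35.5 kb beyond Cldn4, were bound in neither genotype. Cldn13 had −0.41 in Phc2 L307R cells, 0.20 in wild-type cells and −0.61 in the value tables.

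**Figure D4:**
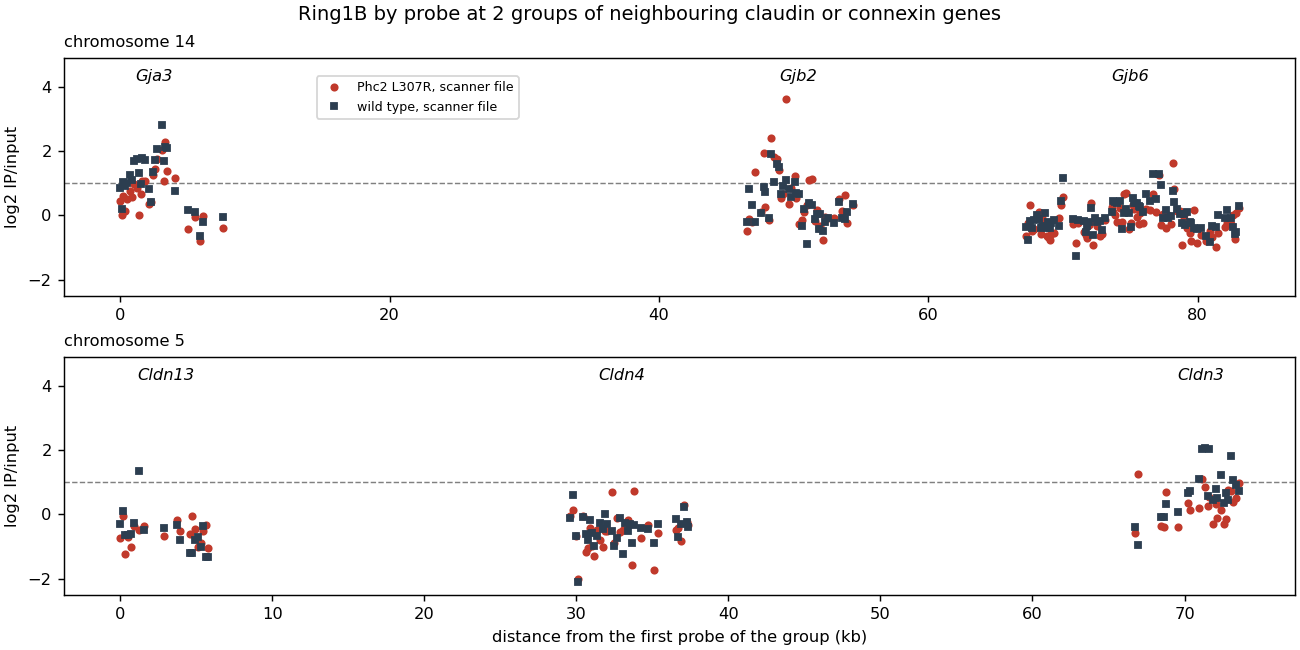
Ring1B by probe (vertical axis, log2 immunoprecipitate/input) against distance from the first probe of each group (horizontal axis, kb) for Gja3, Gjb2 and Gjb6 on chromosome 14 and Cldn13, Cldn4 and Cldn3 on chromosome 5. Circles are Phc2 L307R and squares wild type, with the cut-off of 1 dashed. Probes above the line gather at Gja3 and Gjb2, and at Cldn3 2 Phc2 L307R probes and 7 wild-type probes reach it.

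The members' promoters were poorer in CpG than the average promoter. Of the 36 members 27 had a RefSeq promoter. Their median ratio of observed to expected CpG was 0.467, against 0.693 over 12805 array promoters, and 7 of 27 (25.9%) were CpG-rich (a ratio of at least 0.6 and G+C of at least 50%), against 55.7%. Within the CpG-rich members 3 of 7 were bound in Phc2 L307R cells and 5 of 7 in wild-type cells, against 52.6% of all CpG-rich promoters in Phc2 L307R and 62.9% in wild type. Within the 20 CpG-poor members, 5 (25.0%) were bound in Phc2 L307R cells and 6 (30.0%) in wild-type cells, against 23.2% of all CpG-poor promoters in Phc2 L307R and 25.5% in wild type.

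Single members departed from this in both directions. The Gjb5 promoter, with 3 CpG and a ratio of 0.14, had levels of 1.74 in Phc2 L307R and 1.28 in wild-type cells. Gja1 had the highest level at a ratio of 0.54, and Cldn3 was bound in wild type at 0.35. Gja9, with 41 CpG and a ratio of 0.98, was below 1 in both genotypes. Across the 27 genes, which share the arrays, Spearman's rho between the ratio and the Ring1B level was 0.41 in Phc2 L307R and 0.35 in wild type, and across all promoters it was 0.42 in Phc2 L307R and 0.51 in wild type.

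The E-box CAGGTG, or CACCTG on the other strand, is the motif that the Snail and Zeb repressors of epithelial genes recognise. It was found in 8 of the 27 promoters (29.6%), against 18.9% of all promoters of the same length, and the printed promoters of Gjb2, Cldn3 and Cldn4 hold it. The match describes letters in these windows only.

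**Figure D5:**
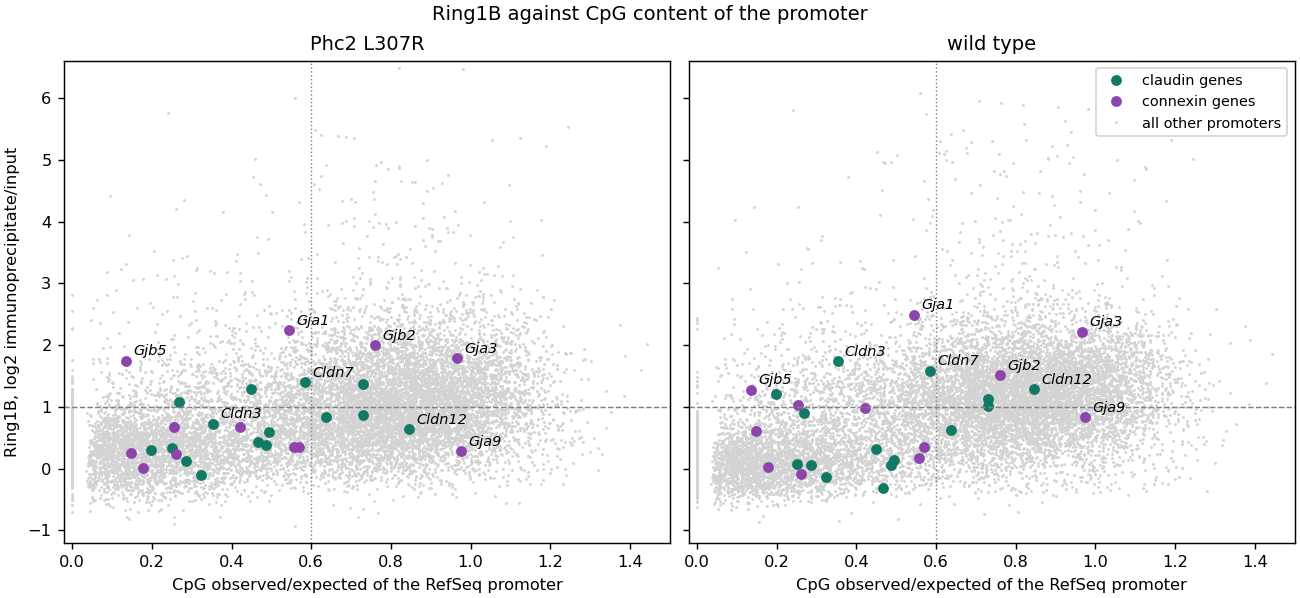
Ring1B level (vertical axis, log2 immunoprecipitate/input) in Phc2 L307R (left panel) and wild type (right panel) against the ratio of observed to expected CpG in the RefSeq promoter (horizontal axis), for 27 claudin (green) and connexin (purple) genes and all other promoters (grey). The dotted line marks a ratio of 0.6 and the dashed line the bound cut-off of 1. Gjb5, at 0.14, and Gja1, at 0.54, are bound to the left of the dotted line in both panels, and Gja9, at 0.98, is not bound.

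Other genes of the same junctions gave a frame for these values. Of 27 measured tight junction scaffold, receptor and pannexin genes, 12 (44.4%) were bound in Phc2 L307R cells and 11 (40.7%) in wild-type cells, near the 39.3% of all promoters in Phc2 L307R and the 45.4% in wild type. Against the scanner values, 0 of these were called lower and 1 was called higher, against 3.02% of all bound promoters called lower and 1.64% called higher. The one called higher was Inadl (now Patj), a polarity scaffold of tight junctions, with 2.29 in Phc2 L307R cells and 1.26 in wild-type cells, a difference of 1.02 ± 0.62. The value tables gave 1.72 at Inadl, and the difference of 0.57 against them did not pass the rule. The Inadl input was well above background at 0 of 3 probes in Phc2 L307R cells and at 1 in wild-type cells. The 2 with the highest wild-type levels were Magi1, a junction scaffold, with 2.15 in Phc2 L307R cells and 2.64 in wild-type cells, and Ocln, encoding occludin, with 2.30 in Phc2 L307R cells and 2.63 in wild-type cells. The value tables gave 2.19 at Magi1 and 3.75 at Ocln, so the differences against them were −0.04 and −1.45. Of 26 measured regulators of epithelial junction genes, transcription factors and a splicing factor, 20 (76.9%) were bound in each genotype. The shares of all promoters were 39.3% in Phc2 L307R and 45.4% in wild type. Median levels were 2.25 in Phc2 L307R, 2.30 in wild type and 2.35 in the value tables. Against the scanner values 0 were called lower or higher, with a median difference of −0.05 and 15 of 26 below 0. Against the value tables the median difference was −0.42, with 18 of 26 below 0, and −0.01 over all promoters. Calls against the value tables were not counted for these regulators. The highest in wild type were Gata4, at 5.08 in Phc2 L307R and 6.00 in wild type, and Foxa1, at 4.62 in Phc2 L307R and 5.25 in wild type. The value tables gave 7.09 at Gata4 and 6.42 at Foxa1, so the differences against them were −2.01 and −1.79. No claudin or connexin reached such levels.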

How the data were processed

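The files were the scanner output of 4 Agilent 2-colour arrays and 2 value tables. Per the file headers, Agilent Feature Extraction (version 10.7.3.1) measured spot intensity, subtracted background, detrended and normalized the dyes linearly, and a log10 ratio of Cy5 over Cy3 was deposited for each spot. Comparison with the scanner ratios showed that the deposited value tables hold log10 ratios as well. Their column medians were −0.034 and −0.039 in Phc2 L307R and −0.056 and −0.062 in wild type, and how the authors centred them is not stated in the sources used here.

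The ratios were turned into log2 values and centred on each array's median, without control and outlier-flagged spots (Python 3.11.15, pandas 2.3.3, numpy 2.4.6; limma 3.58.1 in R 4.3.3 for normexp and loess). The rules of size were run on simulated data with changes larger than the threshold, noise no greater than on these arrays and no effect of low input. That run does not show how the rules do near the threshold, where Cldn3 stands. The number of arrays limits the precision. Named were every bound or called member, the 3 with the lowest and the 3 with the highest differences and the 3 lowest in wild type, except those not reported singly. From the other lists, called genes and the 2 highest in wild type were named. Members outside this rule (Gja5, Gja9 and Cldn13 among them) were named after their values were seen. Some members enter every count and median but are not reported singly here, nor drawn in the plots of levels and differences. Members and lists were chosen with earlier results of these data known. For 32 members the array name is current; 4 were renamed through RefSeq synonyms or neighbouring genes. Alternatives were background correction, normalization, probe filter, window choice and size, cut-offs, array design and, added after seeing the data, the wild-type value tables in the same windows.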

Additional observations from a re-analysis of the deposited data

How the results depend on the processing

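Each promoter was measured once per genotype, and the input was well above background in all probes of both genotypes in 7 of 36 windows, which limits the precision of low inputs. No paired analysis was possible because the replicate numbers in the titles name array designs that share no probes, and no result comes from a test. The counts of bound members were 3 in Phc2 L307R and 5 in wild type with normexp background correction (12.8% of all promoters in Phc2 L307R and 22.9% in wild type), 1 in Phc2 L307R and 2 in wild type with the mean over all probes (3.98% of all promoters in Phc2 L307R and 4.71% in wild type), 5 in Phc2 L307R and 6 in wild type with a cut-off of 1.5 (18.6% of all promoters in Phc2 L307R and 22.0% in wild type), and 3 in Phc2 L307R and 6 in wild type on design 1 alone, with 17 members (38.3% of all its promoters in Phc2 L307R and 45.7% in wild type). On design 2 alone, with 19 members, 8 were bound in Phc2 L307R (42.1%, against 40.2% of all its promoters) and 6 in wild type (31.6%, against 45.2%), so the lower share in Phc2 L307R rests on design 1. With probes well above background 6 were bound in Phc2 L307R (22.6% of all promoters) and with windows of 5 probes also 6 (29.2% of all promoters). The count of members called lower was 0 with normexp, with probes well above background, with windows of 5 probes, with windows chosen in Phc2 L307R alone, with the mean over all probes and on design 2 alone. Under these settings 1.06% to 4.54% of all bound promoters were called lower. The count of members was 2 of 15 bound (Cldn3 and Cldn19) with windows chosen in wild type alone, against 5.32% of all bound promoters. It was 4 of 16 with a 1.5-fold rule (Cldn3, Cldn12, Cldn19 and Cldn23), against 13.5%. It was also 4 of 16 with the value tables, against 8.24%, and with the wild-type value tables in the same windows, against 7.26%. The count called higher was 2 of 16 with the 1.5-fold rule (Cldn8 and Cldn18), against 6.38% of all bound promoters. The median difference over all promoters, −0.05, was −0.24 with windows chosen in wild type alone and 0.15 with windows chosen in Phc2 L307R alone. That over members was −0.31 with windows chosen in wild type alone and −0.27 on design 1 alone, where that over claudins was −0.63. The single designs hold fewer genes; the causes of the other changes were not tested. Over the 19 named members, 161 of 190 differences kept their sign under the 10 settings that recompute them, and 7 members kept it under all 10, among them Cldn3, Cldn7, Cldn11, Cldn19, Cldn23 and Gja3. The Gja1 difference ran from −0.52 to 0.28.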

Other observations

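Promoters of fibroblast and epithelial marker genes were read in the same way, as values of occupancy and not of expression. Of 10 fibroblast genes, 9 were bound in each genotype (90.0%, against 39.3% of all promoters in Phc2 L307R and 45.4% in wild type), with median levels of 2.42 in Phc2 L307R and 2.17 in wild type. Vim, encoding the intermediate filament protein vimentin, had 2.67 in Phc2 L307R and 2.95 in wild type, and Pdgfra, a growth factor receptor of mesenchyme, had 3.11 in Phc2 L307R and 3.03 in wild type. The difference against the scanner values was above 0 in 8 of the 10, Vim being an exception, with a median of 0.25. Against the value tables the median was 0.03, with 3 of the 10 below 0. There Vim had 0.26 and Pdgfra −0.73. Of 7 measured epithelial genes, 3 were bound in Phc2 L307R and 2 in wild type, with medians of 0.48 in Phc2 L307R and 0.46 in wild type. Cdh1, encoding E-cadherin, had 1.23 ± 0.11 in Phc2 L307R and 1.90 ± 0.18 in wild type, and 2.33 in the wild-type value tables. Cdh1 was 1 of 3 epithelial genes with a difference below 0. The other 4 were above 0, Krt14 among them with 0.36 in Phc2 L307R and −0.24 in wild type, and the median difference was 0.02. These genes were picked for naming after their values were seen.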
